A study of Mus musculus with 2 samples.

Results

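The heat shock proteins and chaperones examined here are 94 genes of the 11262 in the deposited table. They were chosen by gene name, with earlier results of these data known. They comprise the HSP90, HSP70 and HSP110, HSP60 and HSP10 and small heat shock protein families, the DnaJ proteins of classes A, B and C, the TRiC chaperonin, prefoldin, the Bag proteins, the numbered protein disulfide isomerases, calnexin and calreticulin, the FKBP immunophilins, the HSP90 co-chaperones Stip1, Ahsa1 and Ahsa2, and the heat shock transcription factors Hsf1 and Hsf2. Hspbap1 matched by name only, as it encodes a partner of a small heat shock protein. The study separated the second polar body (PB2), the small cell that a fertilized egg extrudes at the end of meiosis, from the zygote of untreated C57BL/6 mouse embryos late in the 1-cell stage, and profiled polyA RNA of each after amplification of full-length cDNA. There was 1 library of PB2 and 1 of zygotes, each from pooled cells after removal of the zona pellucida and detachment of PB2 by trypsin and pipetting, so no test was run, no spread between samples is known, and every difference describes this pair of libraries.

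Chaperones help proteins reach and keep their folded state. HSP70 binds exposed segments of a client under the control of DnaJ proteins, which stimulate its ATPase, and of nucleotide exchange factors such as the Bag proteins and HSP110, and HSP90 acts later on kinases, receptors and other clients. TRiC encloses actin, tubulin and other clients that prefoldin can deliver. HSP60 with HSP10 encloses mitochondrial clients, and the endoplasmic reticulum has its own set of chaperones. Hsf1 drives the heat shock response and in the mouse oocyte is a maternal factor needed for Hsp90aa1 transcription.

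Values are TPM, a gene's share of the transcripts in its library, adjusted for gene length and scaled to a fixed total. A TPM value is a share of a library, so it does not tell how many molecules PB2 or the zygote held, and lower values of some genes raise those of others in the same library. Depth is unknown because TPM keeps no read number. The table held 92.7% of the zygote library's total TPM and 89.8% of that of PB2. All 12 oocyte and zygote markers examined were present in both libraries, from 99.5 to 10495.6 TPM in PB2 and from 62.7 to 22561.9 TPM in the zygote. Of 14 cumulus and granulosa cell markers, 5 were in the table, and their sum was 81.0 TPM in the zygote against 81.1 TPM in PB2, nearly all of it Cyp19a1. Of 8 sperm markers, 3 were in the table, with a sum of 30.3 TPM in the zygote against 40.5 TPM in PB2. The part of other cell types in the chaperone values was not tested.

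Regulatory sequence could be read for a subset of the members in the RefSeq promoter windows (GRCm38.p6, 250 bases before to 50 after a transcript start), which matched 79 of the 94 members by symbol. The ER stress element, which the factors of the unfolded protein response bind, was searched on both strands as CCAAT and CCACG with any 9 bases between them. It occurred in 0.119% of the 32851 windows, in 0.226% of the 8419 compared genes that have a window and in 7.89% of the 76 compared members that have one. Those 6 members were Calr, Canx, Dnajc3, Hsp90b1, Hspa5 and Pdia6, all of the endoplasmic reticulum, and Hsp90b1 held it at a pair of sites. They are shown because they mark the folding genes of this compartment by a feature that the choice of members did not use. An Hspa5 exon in GENCODE M21 overlaps the stretch around the Hspa5 site. Each line gives the strand of the gene 5′ to 3′ with the element, in either orientation, in capitals.
Calr, minus strand, chr8:84847055-84847113: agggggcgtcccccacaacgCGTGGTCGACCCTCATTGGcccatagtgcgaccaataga
Canx, minus strand, chr11:50325780-50325838: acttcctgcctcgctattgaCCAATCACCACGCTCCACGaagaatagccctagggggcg
Dnajc3, plus strand, chr14:118937807-118937865: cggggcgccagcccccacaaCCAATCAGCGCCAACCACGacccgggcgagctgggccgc
Hsp90b1, minus strand, chr10:86705618-86705676: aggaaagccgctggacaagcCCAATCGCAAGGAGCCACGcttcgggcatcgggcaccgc
Hsp90b1, minus strand, chr10:86705513-86705571: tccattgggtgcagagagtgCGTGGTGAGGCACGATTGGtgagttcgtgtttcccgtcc
Hspa5, plus strand, chr2:34772020-34772048: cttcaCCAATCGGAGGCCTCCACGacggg
Pdia6, plus strand, chr12:17266471-17266529: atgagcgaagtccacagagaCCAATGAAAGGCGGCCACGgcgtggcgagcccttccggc

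The heat shock element, the binding motif of Hsf1, was searched on both strands as GAA, TTC and GAA with any 2 bases between neighbours. It occurred in 0.603% of all windows and in 4 of the 76 members, 5.26%, against 0.570% of compared genes. The members were Dnajb6, Hspd1, Hspe1 and Hsph1, and no match in a window says only that these letters are absent from it. Members without a matched window, among them Hsp90aa1, Hsp90ab1, Hspa8, Hspa9 and Hsf1, were not searched for either element. Hspd1 and Hspe1, which encode mitochondrial HSP60 and HSP10, lie head to head and share 1 stretch in which a pair of matches overlaps. It begins 89 bases upstream of the Hspe1 start and 144 bases upstream of the Hspd1 start in RefSeq, and GENCODE M21 places it within an exon of a longer Hspd1 transcript. In Hsph1 the match lay 15 or 36 bases downstream of the annotated starts. Exons of Dnajb6 and Gm5129 in GENCODE M21 overlap the stretch around the Dnajb6 match. The shared site of the mitochondrial pair and the site of Dnajb6 are shown with the matches in capitals.
Hspe1, plus strand, chr1:55088054-55088081: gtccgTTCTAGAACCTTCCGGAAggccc
Dnajb6, plus strand, chr5:29735847-29735869: tccgaGAATCTTCCGGAAcgcta

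The chaperones as a whole took up a similar share of the PB2 and zygote libraries. They summed to 13370.5 TPM in the zygote, 1.34% of the library, and 13632.3 TPM in PB2, 1.36%. A single gene, Hsp90aa1, made up 36.1% of the sum in each library, and without it the sums were 8548.3 TPM for the zygote and 8717.0 TPM for PB2. The 10 most abundant members held 66.7% of the chaperone total in PB2 and 67.2% in the zygote. The median member was at 31.4 TPM in the zygote against 26.8 TPM in PB2, while the median gene of the table was at 8.70 TPM in the zygote against 11.1 TPM in PB2. No member was listed at 0 in either library.

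The log2 ratio used below is log2((PB2 TPM + 1)/(zygote TPM + 1)), taken for each gene that reached 1 TPM in PB2, the zygote or both. The added 1 understates the change of low genes. Of the members, 91 passed this filter, and Dnajb14, Dnajc16 and Dnajc27 stayed under 1 TPM in both libraries. A ratio of 2-fold or more favoured PB2 in 11 members, 12.1%, against 18.9% of all 10645 genes compared. It favoured the zygote in 7 members, 7.69%, against 8.09% of all genes. The median log2 ratio of the members was -0.09, against 0.21 over all genes. Of the members, 42 had a log2 ratio above 0 and 49 below it, 46.2% and 53.8%, against 59.2% and 40.0% of all genes.

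The balance of these counts moved with the centre of the scale. Centred on the median of all genes, a shift of 0.21, 6 members were past 2-fold in PB2 and 15 in the zygote, 6.59% and 16.5%, against 13.0% and 12.1% of all genes. Of the chaperones past 2-fold, those higher in PB2 thus went from 61.1% to 28.6%, while over all genes this share went from 70.0% to 51.7%. When the zygote values were multiplied by 1.06, the median ratio of the 4973 genes abundant in both libraries, the counts were 9 and 9, an even split of the members past 2-fold, while 64.5% of the genes past it were higher in PB2.

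**Figure D1:**
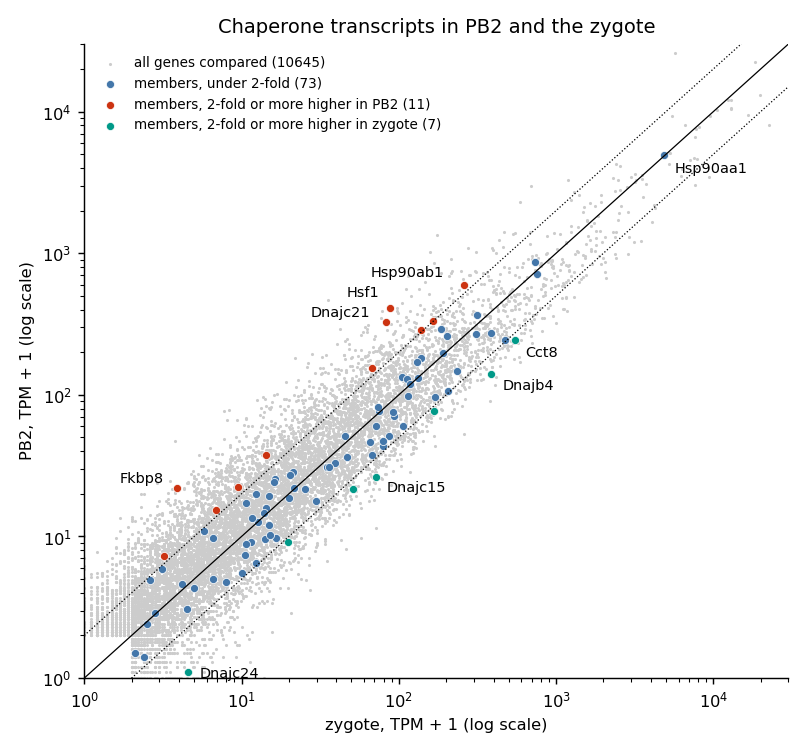
TPM + 1 of each gene in the zygote (x axis, log scale) and in PB2 (y axis, log scale), 1 library each, with 10645 genes in grey and 91 chaperone members in colour. The solid line marks equal values and the dotted lines 2-fold. Hsp90aa1 lies on the line of equal values, 11 members lie past the upper dotted line and 7 past the lower one.

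Hsf1 stood out among the abundant members. This regulator of the heat shock response stood at 86.5 TPM in the zygote against 410.1 TPM in PB2, 4.74-fold higher, with a log2 ratio of 2.23. Hsf1 (ENSMUSG00000022556) is annotated by GENCODE M21 on the plus strand of GRCm38 chromosome 15, between positions 76477422 and 76501913. Its relative Hsf2 was low in both libraries, with 3.2 TPM in the zygote against 3.6 TPM in PB2. Hsf1 was thus the 302nd most abundant gene of the table in PB2 and the 1453rd in the zygote, while its sister gene was close to its zygote level.

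The HSP90 genes differed from each other. Hsp90aa1, the inducible cytosolic form, stood at 4822.2 TPM in the zygote against 4915.3 TPM in PB2 and ranked 27 and 19 among all genes of the table. Hsp90ab1, the constitutive cytosolic form, stood at 260.2 TPM in the zygote against 599.3 TPM in PB2, 2.30-fold higher and just under 2-fold with centred ratios. The level of Hsp90aa1 was accordingly 18.5 times that of Hsp90ab1 in the zygote and 8.20 times in PB2. Hsp90b1, the form of the endoplasmic reticulum, had 138.0 and 180.8 TPM, under 2-fold. In both libraries the inducible gene was far the higher of the cytosolic pair.

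The HSP90 co-chaperones Ahsa1, Ahsa2 and Stip1 were each under 2-fold apart. Ahsa1, which stimulates the HSP90 ATPase, stood at 736.6 TPM in the zygote against 862.5 TPM in PB2, and Ahsa2 had 13.0 and 8.6 TPM. Stip1, which bridges HSP70 and HSP90, was 1.78-fold higher in the zygote, with 168.9 against 94.9 TPM. Stip1 passed 2-fold with centred ratios, and the log2 ratio of Ahsa1 turned negative with the GC trend removed.

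No HSP70 or HSP110 gene was 2-fold apart, and the 10 genes had log2 ratios from -0.75 to 0.71. Hspa8, the constitutive cytosolic HSP70, stood at 85.1 TPM in the zygote against 50.3 TPM in PB2. Hspa5, the HSP70 of the endoplasmic reticulum, had 116.3 and 119.2 TPM, and Hspa9, the mitochondrial form, 103.4 and 132.5 TPM. The cytosolic form was thus the lowest of the 3 in each library. Hspa1b, an inducible HSP70 known as an early marker of zygotic genome activation, was at 1.5 TPM in the zygote against 1.4 TPM in PB2. Its near-identical copy Hspa1a was not analysed here, and reads that fit both copies make this value uncertain. Hspa2, a form of male germ cells, had 3.5 and 2.1 TPM.
The HSP110 and Bag exchange factors of HSP70 were lower than Hspa8, Hspa5 and Hspa9 in each library. Hsph1 stood at 11.8 TPM in the zygote against 11.7 TPM in PB2, Hspa4 15.5 and 8.8 TPM, and Hspa4l 15.0 and 23.3 TPM. The related Hspa4 and Hspa4l thus lay on opposite sides of equality, each under 2-fold. The 4 Bag genes stayed under 20 TPM, among them Bag1 at 19.1 TPM in the zygote against 17.6 TPM in PB2, and their median log2 ratio of 0.29 turned negative with the GC or the length trend removed.

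DnaJ proteins of class A, the full-length HSP40 type, had a median log2 ratio of 0.80, with all 4 genes above 0, although Dnaja1 lay below 0 under 3 of the scalings described below. Dnaja3, the mitochondrial member, stood at 13.4 TPM in the zygote against 36.9 TPM in PB2, 2.75-fold higher, and Dnaja4 had 8.5 and 21.2 TPM, 2.49-fold higher. The abundant cytosolic genes were closer, with 201.9 and 260.6 TPM for Dnaja2 and 190.2 and 195.8 TPM for Dnaja1. The differences past 2-fold were thus in the less abundant genes of the class.

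Class B held members past 2-fold in both directions. Dnajb1, the main stress-induced partner of HSP70, stood at 137.5 TPM in the zygote against 285.3 TPM in PB2, 2.07-fold higher. Dnajb4, a close relative of it in the cytosol, stood at 386.7 TPM in the zygote against 139.5 TPM in PB2, 2.77-fold higher in the zygote. The more abundant of this pair was therefore Dnajb4 in the zygote and Dnajb1 in PB2. Dnajb2 had 2.2 and 6.3 TPM, past 2-fold but not with centred ratios or with the GC or the length trend removed. Dnajb6, whose heat shock element is shown above, had 112.6 and 97.0 TPM.

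Class C is the most varied, since its proteins share only the J domain, and its 23 compared genes ran from -2.06 to 1.97 on the log2 scale. Its most abundant gene, Dnajc8, a nuclear protein linked to splicing, stood at 758.1 TPM in the zygote against 712.4 TPM in PB2. Dnajc21, which acts in the maturation of the large ribosomal subunit, stood at 82.4 TPM in the zygote against 325.9 TPM in PB2, 3.96-fold higher. Dnajc1, of the endoplasmic reticulum, had 5.9 and 14.5 TPM. Only these last 2 genes of the class were past 2-fold in PB2.
In the other direction, Dnajc15 and Dnajc19, which belong to the import machinery of the inner mitochondrial membrane, had 70.2 and 18.7 TPM in the zygote and 25.2 and 8.2 TPM in PB2. Dnajc7, a co-chaperone that binds HSP70 and HSP90, had 78.0 and 42.2 TPM, just under 2-fold. Dnajc5b, of the cysteine string protein group, stood at 50.4 TPM in the zygote against 20.6 TPM in PB2. Its relatives Dnajc5 and Dnajc5g did not share this difference, with 4.8 and 9.9 TPM and with 20.6 and 21.1 TPM. Dnajc24, which is needed to make diphthamide on elongation factor 2, stood at 3.6 TPM in the zygote against 0.1 TPM in PB2. Values are rounded to 1 decimal, and rounding alone allows a zygote level of Dnajc24 from 23.7 to 73.0 times that in PB2. Counting error, which is unknown and large at so low a value, is not part of this range.

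TRiC subunit transcripts were lower in PB2 for 5 of the 7 subunits in the table. Cct8 stood at 543.5 TPM in the zygote against 241.6 TPM in PB2, 2.25-fold higher in the zygote and the only subunit past 2-fold. Cct2 had 204.7 and 106.0 TPM, Cct5 105.0 and 59.6 TPM, Cct3 64.9 and 45.2 TPM, and Tcp1 35.1 and 30.1 TPM. Cct7 stood at 19.2 TPM in the zygote against 26.1 TPM in PB2, and Cct4 13.4 and 14.8 TPM. These last 2 log2 ratios are small, and Cct4 lay below 0 with centred ratios or the length trend removed and Cct7 with the GC trend removed. Although the subunits assemble into 1 ring complex, their transcripts spanned 40.6-fold in the zygote and 16.3-fold in PB2. The order of abundance had the same 5 subunits on top, and the difference between libraries was greatest for the most abundant of them. Summed, the subunits held 985.8 TPM in the zygote against 523.4 TPM in PB2. Cct8 shares exon sequence with Usp16 on the opposite strand, and Cct6a was not analysed here.

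Prefoldin, which hands clients to TRiC, had a median log2 ratio of -0.21 over its 5 members. Pfdn4 stood at 473.6 TPM in the zygote against 244.3 TPM in PB2, 1.94-fold higher in the zygote. Pfdn5 had 386.9 and 272.8 TPM and Pfdn6, whose log2 ratio was positive with the length trend removed, 24.3 and 20.8 TPM. Pfdn2 was level, with 132.2 and 130.5 TPM, and Pfdn1 had 313.6 and 366.7 TPM, a log2 ratio that turned negative with the GC trend removed. The sixth subunit gene, Vbp1, is not a member by name and stood at 122.7 TPM in the zygote against 46.2 TPM in PB2. Of the prefoldin subunits, Vbp1 was therefore the furthest apart. With the GC trend removed it was not, with a log2 ratio of -0.86 against -1.13 for Pfdn5.

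**Figure D2:**
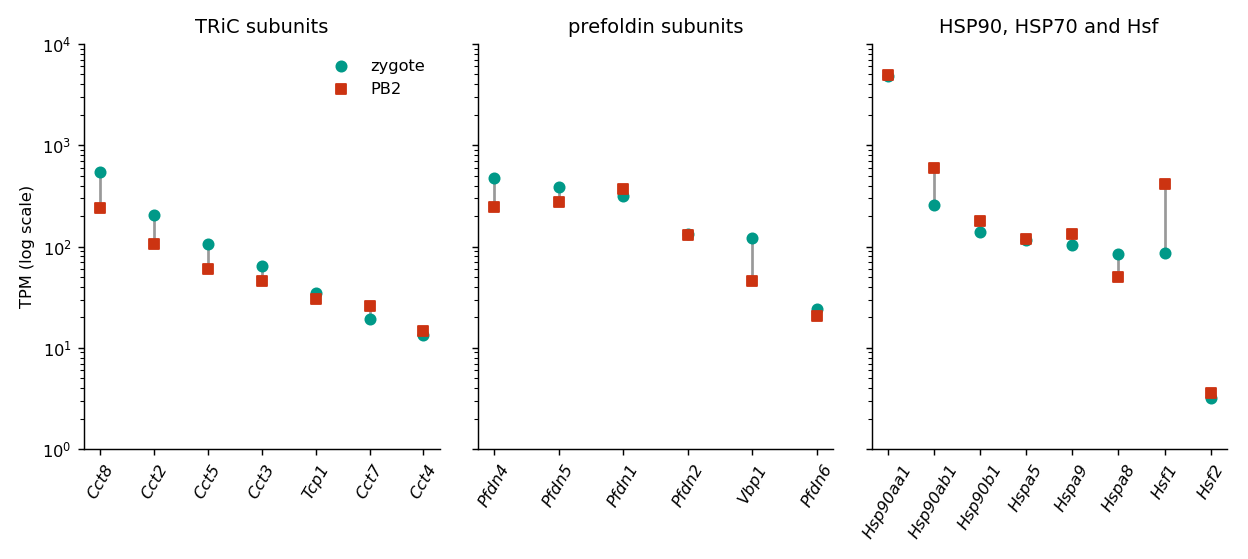
TPM (log scale) of TRiC subunits, of prefoldin subunits with Vbp1, and of HSP90, HSP70 and Hsf genes, with 1 zygote library (circles) and 1 PB2 library (squares). Of the TRiC subunits, 5 lie lower in PB2, Cct8 most with 241.6 against 543.5 TPM, while Hsf1 is at 410.1 TPM in PB2 against 86.5 TPM in the zygote.

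The mitochondrial chaperonin pair, whose shared promoter site is shown above, did not keep its proportion. Hspd1 stood at 112.3 TPM in the zygote against 128.4 TPM in PB2, and Hspe1 had 233.1 and 146.0 TPM. The level of Hspe1 was thus 2.08 times that of Hspd1 in the zygote and 1.14 times in PB2. Exons of the pair overlap on opposite strands, so reads from the overlap cannot be assigned without strand, which the sources used here do not give for these libraries. Of the 8 members listed as acting inside mitochondria, a list that leaves out Fkbp8 of the outer membrane, 4 had a log2 ratio above 0 and 4 below it, from Dnajc15, 2.79-fold higher in the zygote, to Dnaja3, 2.75-fold higher in PB2.

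Of the members that act in the endoplasmic reticulum, Calr, Dnajc1 and Pdia3 were past 2-fold. Calreticulin and calnexin are lectin chaperones that hold new glycoproteins, and Calr stood at 163.9 TPM in the zygote against 329.7 TPM in PB2, 2.01-fold higher and just past the 2-fold limit, while Canx had 128.9 and 170.2 TPM. Pdia3, the disulfide isomerase that works with them, had the opposite direction, with 166.8 TPM in the zygote against 76.1 TPM in PB2, 2.19-fold higher in the zygote. The other isomerases were under 2-fold, with 74.1 and 75.3 TPM for Pdia4, 90.2 and 75.2 TPM for Pdia5 and 92.0 and 69.6 TPM for Pdia6. In PB2 the 4 isomerases were within 1.09-fold of each other, against 2.25-fold in the zygote. Dnajc3, an HSP70 partner in the lumen, stood at 185.2 TPM in the zygote against 290.9 TPM in PB2.
Of the 6 genes with an ER stress element, 5 had a log2 ratio above 0, from 0.04 for Hspa5 to 1.00 for Calr, and Pdia6 had -0.40. Hspa5 lay below 0 under 3 of 5 scalings. Over all compared genes with this element, these 6 included, 11 of 19 were above 0. Of the 4 members with a heat shock element, 1 was above 0, and of the 48 compared genes with that element 34 were. Over all 17 members of this compartment the median log2 ratio was 0.02, with 9 above 0 and 8 below, and the sign of this median changed under 4 of 5 scalings. The lists for the endoplasmic reticulum and mitochondria were drawn up after the values were seen.

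The FKBP immunophilins, peptidyl-prolyl isomerases that bind rapamycin or FK506 or resemble those that do, had 8 of 11 genes below 0 and a median log2 ratio of -0.27. The exceptions reached further. Fkbp8, which sits on the outer mitochondrial membrane and binds Bcl2, stood at 2.9 TPM in the zygote against 20.9 TPM in PB2, 7.21-fold higher and the largest log2 ratio among the members, 2.49. Rounding allows a ratio from 7.07 to 7.35, and Fkbp8 shares exon sequence with Kxd1 on the opposite strand. Fkbp1a, the rapamycin-binding FKBP12, stood at 66.2 TPM in the zygote against 154.9 TPM in PB2, 2.34-fold higher and the highest level of the family in PB2. Fkbp4, an HSP90 co-chaperone of steroid receptors, had 2.1 and 4.9 TPM, and its relative Fkbp5 had 46.1 and 35.3 TPM. Fkbp5 was thus the more abundant of this pair in both libraries.

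The small heat shock proteins were few. Hspb1, an actin-associated chaperone, stood at 44.7 TPM in the zygote against 49.8 TPM in PB2, and its log2 ratio of 0.15 was -0.06 with centred ratios and -0.85 with the GC trend removed. Hspb6 had 9.1 and 4.5 TPM, and Hspb11, which encodes a subunit of intraflagellar transport, 11.3 and 5.5 TPM. Both lay just inside 2-fold on the log2 ratio and past it without the added 1. Hspbap1 had 15.3 and 24.4 TPM.

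**Figure D3:**
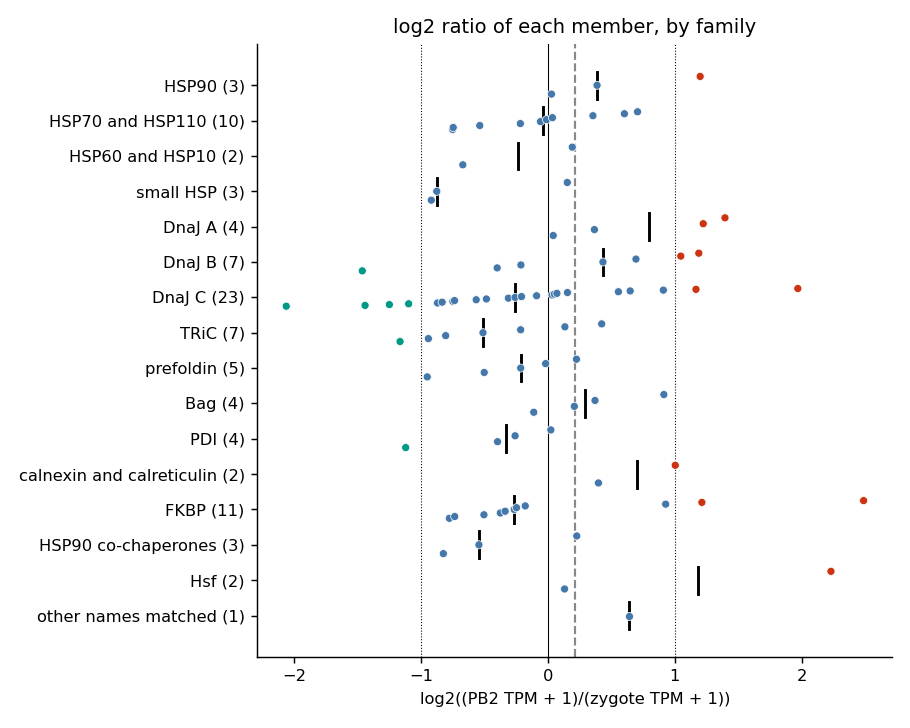
log2((PB2 TPM + 1)/(zygote TPM + 1)) of the 91 compared members by family, with the number of genes in brackets. Points are genes, red past 2-fold in PB2 and green past 2-fold in the zygote, black bars are family medians, dotted lines mark 2-fold and the dashed line the median of all genes, 0.21. DnaJ C spans the widest range, from -2.06 to 1.97, and TRiC has its median at -0.51.

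Across the 16 families, the median log2 ratio was above 0 in 7 and below 0 in 9. The sign of the median changed under a scaling only for Bag, where it did so under 2 of 5. The scalings were centring, scaling to abundant genes, rescaling after mitochondrially encoded genes and the 50 of highest TPM were removed, Hsp90aa1 among them, and removal of a trend on GC content or on length. Dnaja3, Dnajc21, Fkbp8 and Hsf1 stayed at least 2-fold higher in PB2 under all 5 scalings, 4 of the 11. Those that stayed so in the zygote were Cct8, Dnajb4, Dnajc15, Dnajc24 and Pdia3, 5 of the 7. Besides Cct8 and Fkbp8, Dnaja3 shares exon sequence with Vasn on the same strand and with Coro7 on the opposite strand. Pdia3 shares it with Catsper2 and Dnajc24 with Dcdc5, both on the opposite strand.

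Transcript GC content moved with the log2 ratio over the whole table. Spearman's rho was 0.44 across 10606 genes and 0.13 across the 91 members, both given as descriptions across genes that share their libraries. The members had a median GC content of 48.9%, against 49.1% over all genes. The 11 members past 2-fold in PB2 had transcripts of 46.7% to 63.0% GC, and the 7 higher in the zygote of 39.0% to 46.9%. Fkbp8, with 63.0%, and Hsf1, with 57.8%, were among the GC-rich members, and with the trend removed their log2 ratios were 1.46 and 1.38. Dnajc21, with 46.7% GC, kept 1.94. With the trend removed, 4 members, 4.40%, passed 2-fold towards PB2 and 20, 22.0%, towards the zygote, against 9.08% and 11.0% of all genes. The part of GC content in the differences was not tested.

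**Figure D4:**
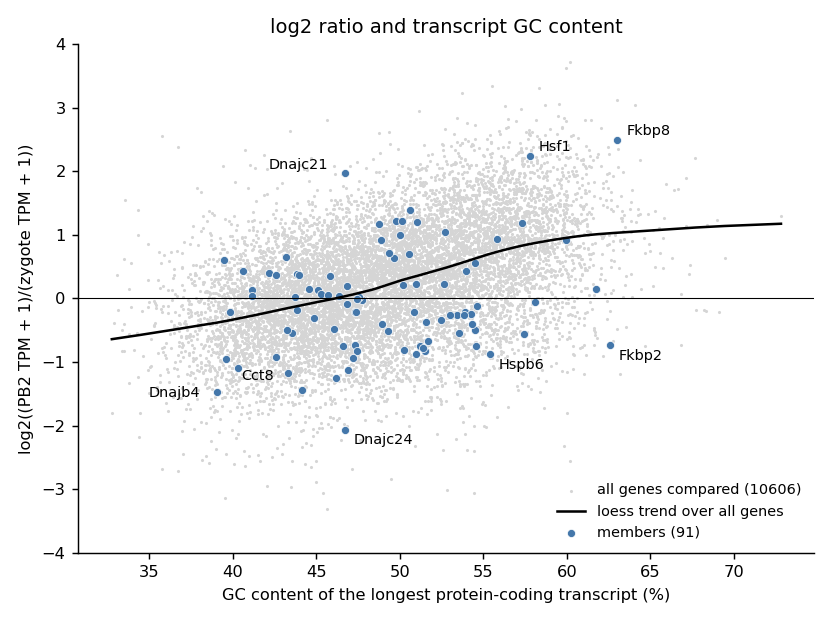
log2((PB2 TPM + 1)/(zygote TPM + 1)) against the GC content of the longest protein-coding transcript (%), for 10606 genes in grey and 91 chaperone members in blue, with the loess trend over all genes as a line. Hsf1 and Fkbp8 lie at high GC content above the trend, Dnajc21 lies far above it at 46.7% GC, and Fkbp2 and Hspb6 lie below it at high GC content.

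The wider protein folding network was read from 115 further gene names written by hand, of which 96 were compared. The 2-fold limit was reached towards PB2 by 14 of them, 14.6%, and towards the zygote by 9, 9.38%, against 18.9% and 8.09% of all genes. Their median log2 ratio was 0.34. With the GC trend removed, 6 were past 2-fold towards PB2 and 12 towards the zygote, against 9.08% and 11.0% of all genes. The median was then -0.05. Genes of the unfolded protein response, which senses misfolded protein in the endoplasmic reticulum, had a median of 0.79 over 20 genes. Of these, 6 were past 2-fold in PB2, 30.0%, and 1 in the zygote, 5.00%, against 18.9% and 8.09% of all genes. Herpud2 stood at 88.1 TPM in the zygote against 313.7 TPM in PB2, Wfs1 6.4 and 23.5 TPM, and Syvn1, the ubiquitin ligase of endoplasmic reticulum degradation, 5.4 and 19.1 TPM. With the GC trend removed, 1 gene of this list was past 2-fold in PB2 and 2 in the zygote, against 9.08% and 11.0% of all genes. The other partners of the endoplasmic reticulum had a median of 0.47 over 21 genes, among them Txndc11, with 7.7 and 33.5 TPM, and Ero1lb, the oxidase that recharges disulfide isomerases, with 49.4 and 126.7 TPM. Manf, a secreted stress protein, went the other way, with 24.5 TPM in the zygote against 9.5 TPM in PB2.
Partners of HSP90 and HSP70 had a median of 0.32 over 24 genes, and of -0.03 with the GC trend removed. Ruvbl1 and Ruvbl2, ATPases that form a common ring working with HSP90, lay on opposite sides, with 45.1 TPM in the zygote against 16.9 TPM in PB2 for Ruvbl1 and 164.3 and 422.8 TPM for Ruvbl2. The partners of TRiC, prefoldin and tubulin had a median of -0.22 over 12 genes, Vbp1 being the only one past 2-fold. With the GC trend removed, Arl2 passed it instead, with a log2 ratio of -1.15, and Vbp1 had -0.86. Mitochondrial partners had a median of 0.06 over 8 genes, and of -0.15 with centred ratios and -0.30 with the GC trend removed. Of these, Clpx, an unfoldase, was at 29.1 TPM in the zygote against 9.5 TPM in PB2. The heat shock response list had a median of -0.57 over 6 genes, and nascent chain and stress granule factors 0.46 over 5, or -0.12 with the GC trend removed. In the heat shock response list, Ubb, a polyubiquitin gene, stood at 1390.3 TPM in the zygote against 622.0 TPM in PB2, while Hsf1 itself was higher in PB2.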

How the data were processed

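RNA-seq of 1 PB2 library and 1 zygote library was analysed. Per the submitters' processing notes and supplementary methods, bases were called with CASAVA, reads aligned with HISAT2 2.0.4 and counted per gene with HTSeq 0.6.1p1. The authors deposited TPM values rounded to 1 decimal, and how TPM was made from the counts is not given in the sources used here. OryCun2.0, a rabbit assembly, and GRCm38 are both listed, and the identifiers are mouse Ensembl identifiers. Each column was matched to its sample by name, with 0 columns left over.

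Members, families and gene lists were chosen with earlier results of these data known. Genes with at least 1 TPM in either library were compared with a pseudocount of 1 and a 2-fold limit. Named were the most abundant member of each family, the 10 largest log2 ratios in each direction at 10 TPM or more, all TRiC, prefoldin, HSP90, cytosolic HSP70 and Hsf genes, and up to 10 of the other folding genes. Dnajc24, members set beside a relative, and those of the endoplasmic reticulum, FKBP and small heat shock groups outside this rule were added after their values were seen. Length, GC content and position are those of GENCODE M21 (GRCm38), whose transcripts matched 94 members, and 39 members share exon sequence with another gene. Loess trends had a span of 0.3 and were tested on simulated data. Python 3.11.15, numpy 2.4.6, pandas 2.3.3 and statsmodels 0.14.6 were used.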

Additional observations from a re-analysis of the deposited data

How the results depend on the processing

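No paired analysis was possible because each group has 1 library. Depth is unknown, so counting error, largest for genes of a few TPM such as Dnajc24 and Fkbp8, cannot be given. A count was taken as stable within 1.5-fold, a median within 0.25 and one gene's log2 ratio within 0.5. Of the values for whole lists and for families of 5 or more genes, 85 stayed within these limits and 26 moved, and of the others 568 stayed and 28 moved. No log2 ratio past 2-fold changed sign under the alternatives run. The alternative without Hspg2 could not be run because that gene was not analysed here.

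Members higher in PB2 and in the zygote numbered 6 and 15 after centring, 4 and 20 with the GC trend removed, 5 and 14 with the length trend removed (1283 and 1242 of 10606 genes), 19 and 22 at 1.5-fold and 2 and 1 at 4-fold. With pseudocounts of 0.1 and 0.01, 14 and 14 members passed 2-fold towards PB2 and 11 and 11 towards the zygote. With the pseudocount of 1 these numbers were 11 and 7, so both sides rose. Counts at 1.5-fold, at 4-fold and with these pseudocounts, here and below, have no share over all genes to be read against. The other folding genes higher in PB2 and in the zygote numbered 9 and 13 after centring, against 13.0% and 12.1% of all genes. Without the GC trend they numbered 6 and 12, against 9.08% and 11.0%. Without the length trend they numbered 8 and 13 (1283 and 1242 of 10606 genes). Those past 1.5-fold numbered 31 towards PB2 and 17 towards the zygote, and those past 4-fold 0 and 0. Without the GC trend the medians of prefoldin and FKBP were -0.60 and -0.77. Without the length trend those of HSP70 and HSP110 and of DnaJ B were -0.37 and 0.15, and DnaJ B gave 0.12 with no filter, which adds Dnajb14. Without Hsp90aa1 the member sums were 8548.3 TPM for the zygote and 8717.0 TPM for PB2. Centring, other thresholds, and the removal of Hsp90aa1 move values by construction, and for the trends the cause was not tested.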

Other observations

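The 3′ ends of the annotated transcripts were searched for TTTTAT, a form of the cytoplasmic polyadenylation element that governs translation of stored maternal mRNAs, in the last 100 bases. It was present in 13 of 84 compared members with a 3′ UTR of at least that length, 15.5%, and in 15.6% of 10101 genes. The median log2 ratio was 0.05 for members with it and -0.02 for members without it. The polyadenylation signal AATAAA was present in the same window of 53.6% of members and 66.8% of genes. The annotated end of the longest transcript may not be the end used in the egg.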
